A study of Homo sapiens with 12 samples.

Results

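The genes described here are 44 interferon-stimulated and RNA-sensing genes, taken as every row of the count table whose gene name is on a fixed list of such genes. They are 44 of the 50868 genes in the table. All 44 passed the low-count filter that 17717 genes passed, so none was left out of the tests. The cells were MG63, a human osteosarcoma line in long use, and RNA-seq covered 4 groups of 3 libraries. In a compound experiment, cells received vehicle or 1 µM anticarin-β and were collected after 18 hours. In an siRNA experiment, cells were transfected with Allstar control siRNA or with CCT4-specific siRNA and were collected after 2 days. CCT4 is a subunit of the cytosolic chaperonin, and the series looks for genes that change with the compound and with knockdown of CCT4. No untransfected culture collected at 2 days and no transfected culture collected at 18 hours is among the libraries.

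Interferon-stimulated genes form the cell's inducible antiviral programme. The helicases RIG-I (gene DDX58) and MDA5 (IFIH1) detect RNA in the cytosol and TLR3 detects double-stranded RNA in endosomes, and their signals activate IRF3 and IRF7, which switch on interferon genes. Secreted interferon then acts through its receptor, JAK kinases and a complex that holds STAT2 and IRF9 and binds a DNA element called ISRE in the promoters of the stimulated genes. Many of the induced proteins, among them the OAS enzymes, the kinase PKR (EIF2AK2), the IFIT proteins and the MX proteins, bind viral RNA or block viral growth, and several sensors are themselves induced.

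The libraries held between 13393750 and 17492095 counts each. Nothing in the labels says that replicates were separate cultures, so a p-value here reflects only how far these samples vary, which may be technical. Levels are given in CPM, a library-size unit scaled by TMM, and a gene was called higher or lower when its adjusted p from edgeR's quasi-likelihood test was under 0.05. The mRNA of CCT4 itself did not fall after the siRNA against it. It was 206 ± 9.18 CPM in libraries labelled CCT4 siRNA against 177 ± 14.4 CPM with control siRNA (log2 fold change 0.22 ± 0.09, with its SE, edgeR adjusted p = 0.129), so directions are given below for the libraries as labelled. With anticarin-β CCT4 was 82.3 ± 8.49 CPM against 236 ± 22.9 CPM with vehicle. Markers of the mesenchymal line were present in every group, with COL1A1 at mean levels from 533 to 5018 CPM, while the T cell marker CD3E and the myeloid marker LYZ were at 0 counts in all libraries and the epithelial genes EPCAM and CDH1 were at or below 0.142 CPM on average in every group. Other genes of the same marker lists were present in every group, with group means of 44.5 to 47.2 CPM for KRT8, 68.9 to 114 CPM for KRT18, 8.98 to 14.4 CPM for CD14, 16.2 to 69.8 CPM for CD68 and 2.46 to 19.2 CPM for IL3RA. PTPRC, of the haematopoietic list, had group means from 0.0643 to 1.80 CPM.

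RefSeq promoters of GRCh38.p14, each spanning 250 bases before and 50 bases after a transcription start, were found for 36 of the 44 genes. OAS2, OASL, IRF3, IRF7, IFIT2, MX2, GBP2 and USP18 were not matched. An ISRE-type pair of boxes, GAAANNGAAA on either strand, was present in 25 of the 36 (69.4%), against 1195 of 27305 genes (4.38%) in the whole promoter table. A palindromic GAS match, TTCNNNGAA, the kind of element known from interferon-gamma responses, was present in 11 (30.6%) against 9.38% of all genes. The 2 motifs can overlap, and a match is a description of letters and not a measured site. Stretches before the starts of 6 genes follow. RSAD2, HERC5, IFIT3, ISG15 and DDX60 are the 5 members with the largest increases in the control siRNA libraries, described next, whose exon-free stretch held such a pair, and DDX58 is shown for the sensor RIG-I. Capitals mark ISRE-type pairs, and exon bases were left out. The stretches lie at chr2:6877527-6877664 on the plus strand for RSAD2, chr4:88456917-88457116 on the plus strand for HERC5, chr9:32526325-32526446 on the minus strand for DDX58, chr10:89327747-89327893 on the plus strand for IFIT3, chr1:1013247-1013422 on the plus strand for ISG15 and chr4:168318808-168319002 on the minus strand for DDX60.
RSAD2: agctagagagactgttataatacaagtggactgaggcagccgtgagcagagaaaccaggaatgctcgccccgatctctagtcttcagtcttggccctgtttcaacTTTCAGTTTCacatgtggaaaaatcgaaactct
HERC5: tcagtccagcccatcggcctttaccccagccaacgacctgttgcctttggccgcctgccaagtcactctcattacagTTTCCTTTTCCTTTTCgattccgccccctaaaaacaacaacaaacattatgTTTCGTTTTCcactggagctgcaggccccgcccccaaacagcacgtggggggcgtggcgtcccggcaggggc
DDX58: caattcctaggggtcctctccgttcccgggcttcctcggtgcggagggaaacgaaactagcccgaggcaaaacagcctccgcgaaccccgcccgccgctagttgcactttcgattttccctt
IFIT3: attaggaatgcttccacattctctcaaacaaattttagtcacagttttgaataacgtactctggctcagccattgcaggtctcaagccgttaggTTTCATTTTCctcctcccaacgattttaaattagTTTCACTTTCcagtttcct
ISG15: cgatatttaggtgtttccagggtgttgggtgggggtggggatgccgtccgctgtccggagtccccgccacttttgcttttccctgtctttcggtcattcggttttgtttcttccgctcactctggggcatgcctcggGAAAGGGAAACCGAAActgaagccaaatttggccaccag
DDX60: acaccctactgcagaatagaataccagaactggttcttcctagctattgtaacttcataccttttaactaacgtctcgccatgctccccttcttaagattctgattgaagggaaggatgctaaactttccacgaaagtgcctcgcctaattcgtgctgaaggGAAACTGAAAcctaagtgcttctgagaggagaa
RSAD2 and DDX60 each held 1 such stretch of capitals, IFIT3 held 2 separate ones, and in HERC5 and ISG15 neighbouring pairs shared a box. The DDX58 stretch held none by this pattern, and DDX58 was among the most raised of these genes. The stretch does hold 2 GAAA boxes with 1 base between them, a spacing that the pattern does not count. In the plot of motif distances, most ISRE-type pairs lay before the start. The pairs of TLR3 and EIF2AK2 and 1 pair of IFIT5 spanned it, and both pairs of TRIM21 lay after it. MX1 has 3 RefSeq starts, of which 1 had a pair after it and a different 1 had a pair before it.

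**Figure D1:**
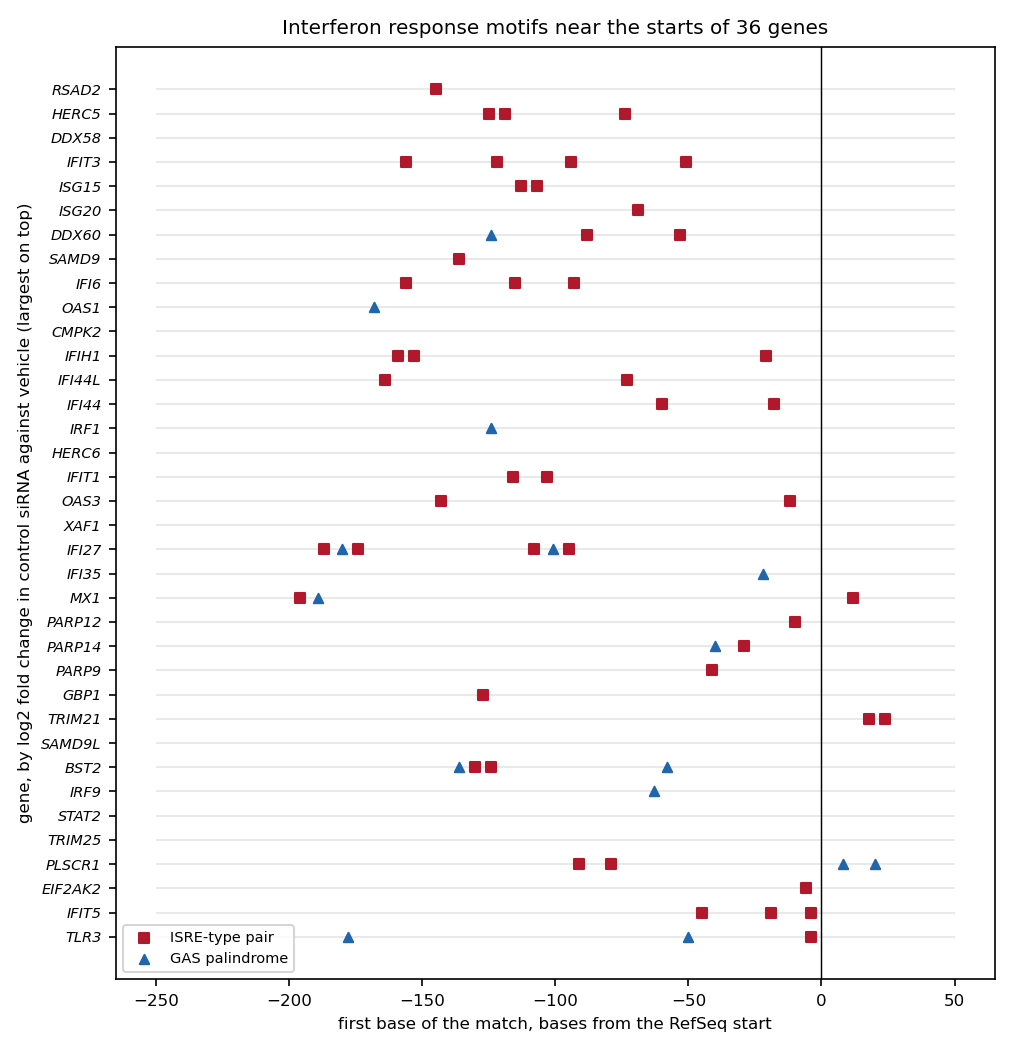
Positions of ISRE-type pairs (red squares) and GAS palindromes (blue triangles) in bases from the RefSeq start (x axis) for the 36 matched genes, ordered by their log2 fold change between control siRNA and vehicle. ISRE-type pairs were found in 25 of the 36 genes and GAS palindromes in 11, and DDX58, just below HERC5 in the order, held neither.

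The comparison with the largest median change was that between the experiments: 40 of the 44 (90.9%) were higher and 1 (2.27%) was lower in control siRNA libraries than in vehicle libraries. Over all genes tested, 24.8% were called higher and 23.6% lower in this comparison (48.4% either way). The median log2 fold change of the 44 genes was 1.71, beside −0.01 over all genes tested. The increase exceeded 2-fold for 31 called genes, 4-fold for 16 and 8-fold for 7, cuts that were not counted over all genes tested. In 39 genes every control siRNA library lay above every vehicle library (28.4% of all genes tested), and in 1, TLR3, every library lay below (27.6%). The groups differ in transfection, in time (2 days against 18 hours) and in experiment, which cannot be told apart, and in bulk RNA a change in the number of responding cells and a change in RNA per cell cannot be told apart either. Vehicle is also the reference for the compound and control siRNA the reference for CCT4 siRNA, so this comparison shares libraries with both others and its values are set beside theirs only as levels.

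**Figure D2:**
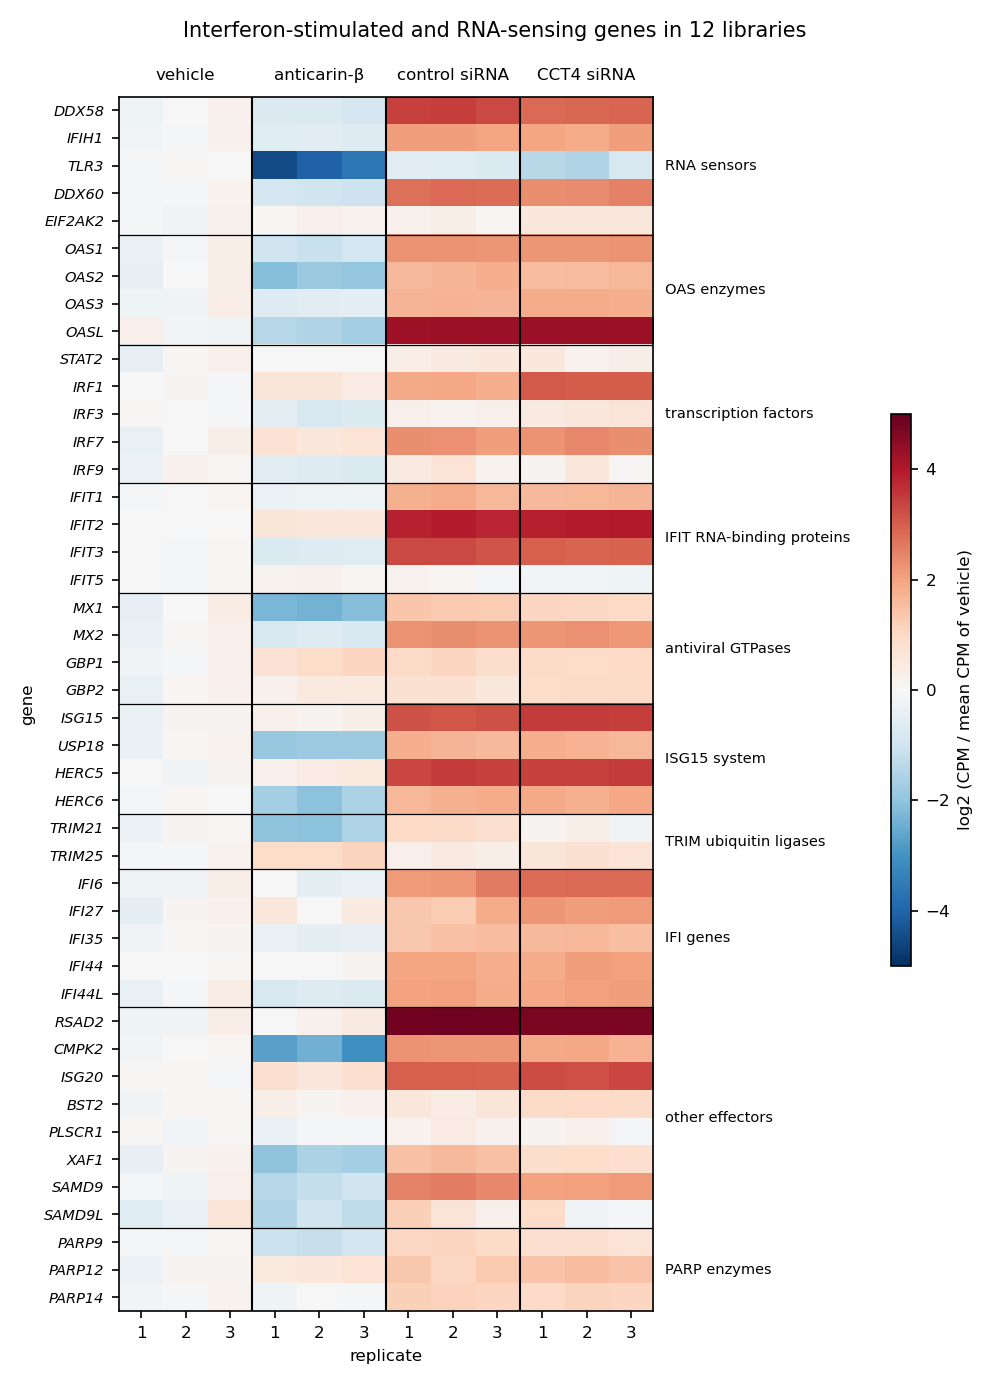
Level of each of the 44 genes (rows, grouped by role) in each of the 12 libraries (columns), as log2 of its CPM over the mean CPM of the vehicle libraries. The 6 siRNA libraries are red in most rows, TLR3 is blue in every siRNA and anticarin-β library, and the anticarin-β libraries are blue for all 4 OAS genes, MX1, USP18, HERC6 and CMPK2.

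The summed level of the 44 genes was 2764 to 3483 CPM in vehicle libraries and 2856 to 2987 CPM in anticarin-β libraries, against 10649 to 10842 CPM with control siRNA and 11174 to 11322 CPM in the libraries labelled CCT4 siRNA. On this TMM scale the sums of vehicle and anticarin-β libraries overlapped, and the sum was higher in each library labelled CCT4 siRNA than in any control siRNA library. As a share of library totals the order was different. The 44 genes took 0.303% to 0.372% of counts with vehicle and 0.231% to 0.240% with anticarin-β, which did not overlap, and 1.19% to 1.21% with control siRNA against 1.14% to 1.16% in the libraries labelled CCT4 siRNA, which were then the lower ones. The gap between the experiments was present on both scales. On a scale per length, CPM per kilobase of exon, BST2 was the most abundant member with vehicle (413), followed by IFI6 (109) and ISG15 (84.0). With control siRNA the first places on this scale went to ISG15 (746), BST2 (588) and IFI6 (541), and TLR3 (1.60) was last.

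RSAD2, which encodes viperin, an enzyme that makes a chain-terminating nucleotide, showed the largest increase. Its level was 8.79, 8.87 and 12.7 CPM in the vehicle libraries and 286, 297 and 287 CPM with control siRNA. No library of one group came near the other, and the log2 fold change was 4.84 ± 0.15 (SE; edgeR adjusted p = 1.44e-10). OASL, an OAS-like protein that enhances RIG-I signalling, was at 53.6, 40.8 and 39.2 CPM with vehicle and 839.6, 875 and 889.8 CPM with control siRNA (4.28 ± 0.12, adjusted p = 7.19e-11). IFIT2, an RNA-binding protein, rose from 70.1, 67.6 and 68.1 CPM to 1000.0, 1057 and 972 CPM (3.88 ± 0.06, adjusted p = 9.51e-13). HERC5, the main ligase that attaches ISG15 to proteins, was at 8.47, 7.54 and 9.36 CPM with vehicle and 86.6, 96.6 and 90.2 CPM with control siRNA (3.43 ± 0.10, adjusted p = 8.92e-11). For all 4 genes the lowest control siRNA library was several times the highest vehicle library. In the libraries labelled CCT4 siRNA these genes remained at that level, at 264 ± 1.92, 881 ± 15.3, 1042 ± 34.6 and 92.7 ± 3.16 CPM (mean ± SD, n = 3), and none of the 4 was called against control siRNA.

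Among the RNA sensors the levels went in different directions. DDX58 was at 26.3, 32.3 and 36.6 CPM with vehicle, 19.3, 19.0 and 17.9 CPM with anticarin-β, 339, 348 and 312 CPM with control siRNA and 225, 235 and 241 CPM in the libraries labelled CCT4 siRNA. The 4 groups did not overlap, and the log2 fold change was 3.39 ± 0.11 for control siRNA against vehicle (adjusted p = 2.24e-10), −0.76 ± 0.11 for the compound (2.89e-05) and −0.51 ± 0.10 for CCT4 siRNA (0.00358). IFIH1 was at 22.4, 22.8 and 28.3 CPM with vehicle, 16.2, 16.7 and 15.6 CPM with anticarin-β, 104, 104 and 95.8 CPM with control siRNA and 95.1, 89.4 and 104 CPM in the libraries labelled CCT4 siRNA. It was higher with control siRNA (2.05 ± 0.10, adjusted p = 6.31e-09) and lower with the compound (−0.60 ± 0.10, 0.00016), while the siRNA groups overlapped (−0.07 ± 0.09, 0.638). DDX60, a helicase reported to assist RIG-I, was at 36.4, 35.8 and 43.6 CPM with vehicle, 21.3, 19.1 and 18.8 CPM with anticarin-β, 259.6, 274 and 269 CPM with control siRNA and 193, 199 and 221 CPM in the libraries labelled CCT4 siRNA. It was called in the same directions as DDX58, with 2.79 ± 0.09 for control siRNA against vehicle, −0.97 ± 0.09 with the compound and −0.39 ± 0.09 for CCT4 siRNA (adjusted p = 2.85e-10, 8.96e-07 and 0.0081).

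TLR3 was the exception among the sensors, lower rather than higher in the siRNA experiment. Its level was 15.3, 17.4 and 16.9 CPM with vehicle, 11.4, 10.9 and 10.0 CPM with control siRNA and 6.41, 5.88 and 9.58 CPM in the libraries labelled CCT4 siRNA, and 0.755, 1.02 and 1.34 CPM with anticarin-β. The anticarin-β libraries held 9, 11 and 16 counts of the gene, and their log2 fold change of −3.98 ± 0.23 (SE; adjusted p = 8.07e-09) was the largest decrease among the 44 genes in any comparison. Control siRNA against vehicle gave −0.62 ± 0.18 (adjusted p = 0.0114) and CCT4 siRNA against control siRNA −0.56 ± 0.18 (adjusted p = 0.0481). The last call held in 10 of 22 alternative fits, with adjusted p up to 0.172. EIF2AK2, whose kinase shuts down translation when it binds double-stranded RNA, was among the least changed. It was at 227, 208 and 276 CPM with vehicle, 252, 281 and 268 CPM with anticarin-β, 275, 294 and 253 CPM with control siRNA and 337, 346 and 353 CPM in the libraries labelled CCT4 siRNA, and only the last comparison was called (0.33 ± 0.10, adjusted p = 0.0287).

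All 4 OAS genes, whose products make the 2-5A messenger, were higher with control siRNA than with vehicle, by 1.71 (OAS3) to 4.28 (OASL, a member of the family without that activity) on the log2 scale. All 4 antiviral GTPase genes were higher, by 0.70 (GBP2) to 2.27 (MX2). All 4 genes of the ISG15 system rose, and ISG15, the ubiquitin-like modifier itself, went from 79.1 ± 13.5 to 702 ± 24.1 CPM (mean ± SD, n = 3, 8.87-fold). USP18, which removes ISG15 and restrains the interferon receptor, rose 3.27-fold. The 5 IFI genes rose by 1.46 (IFI35) to 2.31 (IFI6), the 3 PARP genes by 1.02 to 1.25, and TRIM21 and TRIM25, ubiquitin ligases that act on antibody-bound virus and on RIG-I, by 0.92 and 0.34. Of the other effectors, 7 of 8 were called higher, from PLSCR1 (0.27) to RSAD2. Apart from TLR3, the genes not called higher were EIF2AK2 (0.21, adjusted p = 0.0905), IFIT5 (0.08, 0.443) and SAMD9L (0.74, 0.106). Of the 40 increases, 35 were called in all 22 alternative fits. The exceptions were IRF3, IRF9, STAT2, PLSCR1 and TRIM25, each of which lost its call without at least 1 vehicle or control siRNA library.

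The 5 transcription factors of the pathway were all called higher with control siRNA, 2 of them by more than 2-fold. IRF1, an activator induced by interferon and by inflammatory signals, was at 33.3, 37.1 and 32.1 CPM with vehicle, 52.4, 51.5 and 45.4 CPM with anticarin-β, 127, 132 and 119.9 CPM with control siRNA and 286, 279 and 282 CPM in the libraries labelled CCT4 siRNA. These groups did not overlap and stood in that order. IRF7, the inducible partner of IRF3 in switching on interferon genes, was at 8.79, 11.3 and 14.0 CPM with vehicle, 18.9, 17.0 and 18.5 CPM with anticarin-β, 57.7, 54.6 and 48.1 CPM with control siRNA and 54.2, 60.7 and 56.5 CPM in the libraries labelled CCT4 siRNA. Its siRNA groups overlapped, and both lay above all other libraries (2.23 ± 0.14 for control siRNA against vehicle, adjusted p = 7.41e-08).

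IRF3, the factor that RNA sensors activate directly and that is not itself strongly induced, was at 27.5, 26.6 and 25.8 CPM with vehicle, 19.0, 15.4 and 16.7 CPM with anticarin-β, 31.7, 30.4 and 32.0 CPM with control siRNA and 36.5, 39.4 and 41.2 CPM in the libraries labelled CCT4 siRNA. It was the 1 member called in opposite directions by the treatments, at −0.64 ± 0.09 with the compound (SE; adjusted p = 3.31e-05) and 0.31 ± 0.09 for CCT4 siRNA (0.0256), and the difference of −0.96 ± 0.13 was itself called (2.92e-05). The share of all genes tested with opposite calls was not counted. The IRF3 call for CCT4 siRNA was lost without any 1 control siRNA library or without CCT4 siRNA replicate 2 or 3. Scaling by library totals, no low-count filter or a threshold of 0.01 also removed it. STAT2 was at 54.9, 76.1 and 87.7 CPM with vehicle, 72.5, 73.7 and 74.2 CPM with anticarin-β, 92.6, 99.2 and 106 CPM with control siRNA and 105, 83.0 and 89.4 CPM in the libraries labelled CCT4 siRNA. It was called between control siRNA and vehicle only (0.44 ± 0.14, adjusted p = 0.0199), a call lost without vehicle replicate 1 or control siRNA replicate 3 (adjusted p up to 0.0666). IRF9 was at 14.1, 19.6 and 17.6 CPM with vehicle, 11.7, 11.0 and 10.3 CPM with anticarin-β, 23.6, 27.6 and 19.4 CPM with control siRNA and 18.9, 25.6 and 17.7 CPM in the libraries labelled CCT4 siRNA. It was lower with the compound (−0.64 ± 0.18, adjusted p = 0.00604) and higher with control siRNA (0.46 ± 0.17, 0.039), where the groups overlapped and the call was lost without vehicle replicate 1 or 3 or control siRNA replicate 1 or 2 (adjusted p up to 0.162 over the alternative fits).

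**Figure D3:**
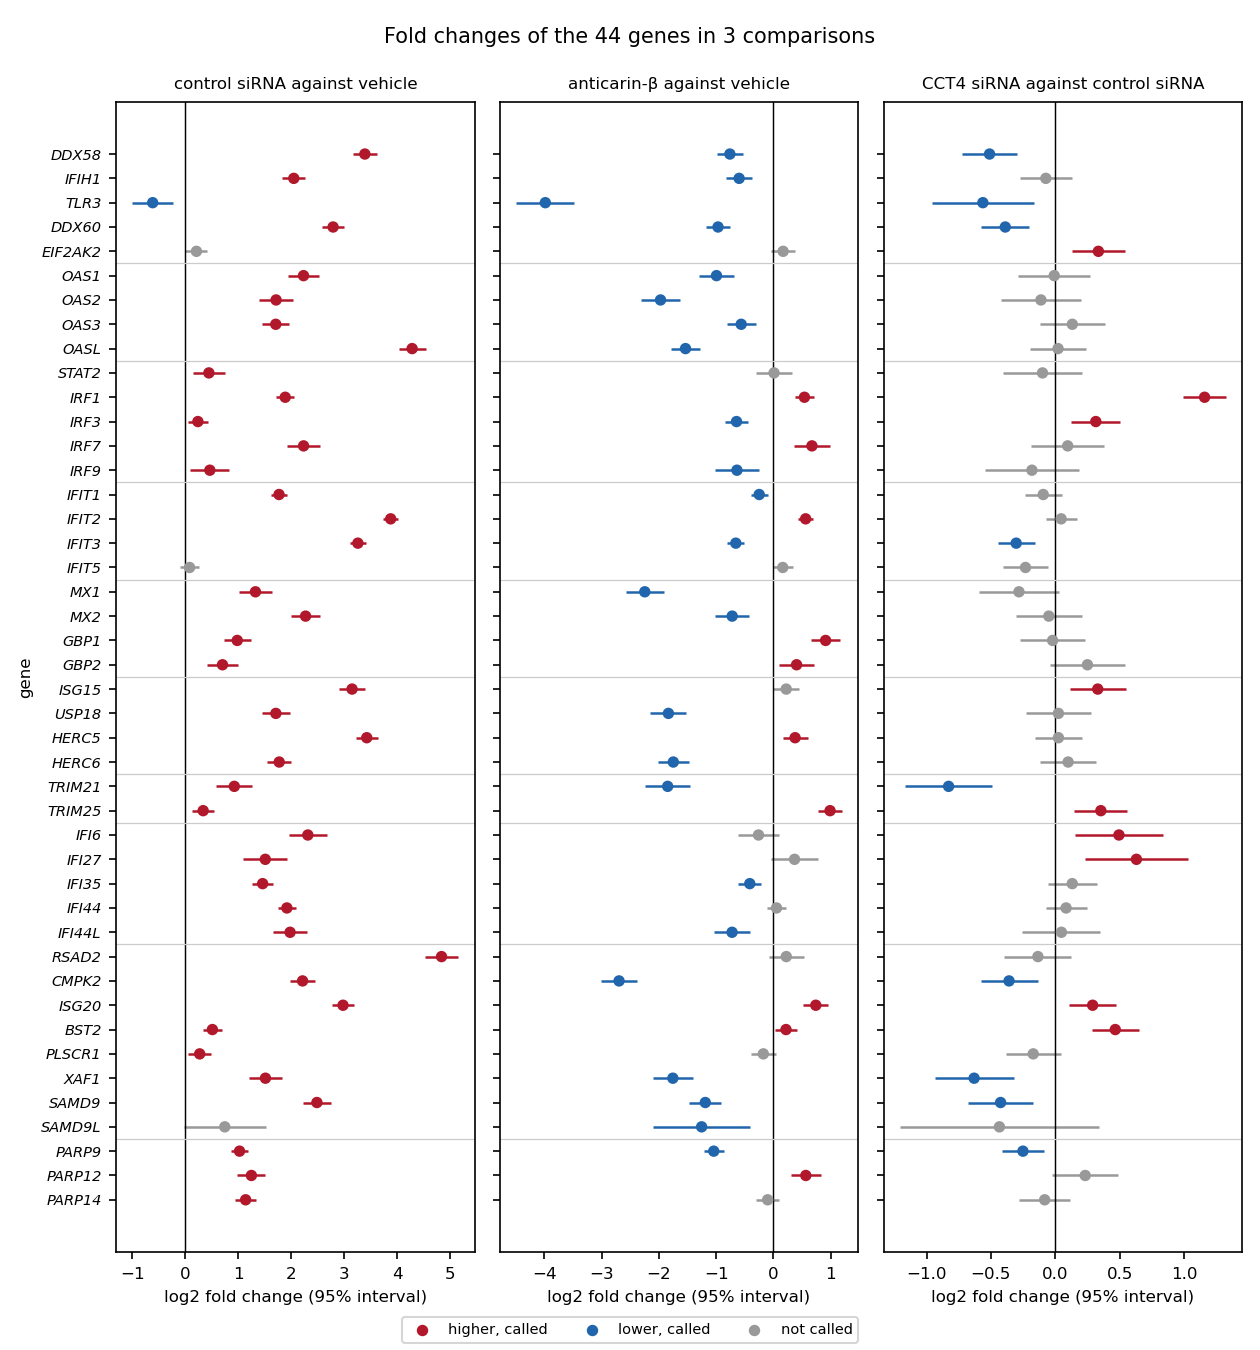
Log2 fold changes of the 44 genes (points) with their 95% intervals (lines) in 3 comparisons, with red for called higher, blue for called lower and grey for not called, and a separate x scale in each panel. In control siRNA against vehicle 40 points are red and 1 is blue, with anticarin-β 10 are red and 24 blue, and with CCT4 siRNA 9 are red and 9 blue.

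With anticarin-β, 24 of the 44 genes (54.5%) were lower and 10 (22.7%) higher than with vehicle. The compound called 38.0% of all genes tested lower and 34.9% higher (73.0% either way), so that a called gene was the rule in this comparison. The median log2 fold change of the 44 genes was −0.49, beside −0.06 over all genes tested. A decrease of more than 2-fold was called for 12 genes and an increase of that size for 0. The share of all genes tested beyond this cut was not counted, so these 2 numbers have no background beside them. Every anticarin-β library lay below every vehicle library for 24 genes (38.8% of all genes tested) and above for 9 (35.8%). With library totals alone in place of TMM, 32 of the 44 genes were lower and 4 higher, against 8959 and 4292 of the 17717 genes tested. The median of all genes then moved to −0.48.

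The members that fell most came from different arms of the response. CMPK2, a mitochondrial nucleotide kinase, fell from 10.1, 11.2 and 12.0 CPM with vehicle to 1.68, 2.13 and 1.34 CPM, which is −2.70 ± 0.14 on the log2 scale (SE; adjusted p = 3.18e-09). Its gene lies head to head with RSAD2 on chromosome 2, and RSAD2 was not called (9.98, 11.6 and 13.9 CPM, 0.23 ± 0.14, adjusted p = 0.171). MX1, a dynamin-like GTPase that traps viral ribonucleoproteins, was at 115, 152 and 198 CPM with vehicle and 32.1, 30.3 and 35.6 CPM with the compound (−2.25 ± 0.15, adjusted p = 3.34e-08). OAS2 fell from 58.6, 76.0 and 99.5 CPM to 17.9, 21.5 and 20.3 CPM (−1.97 ± 0.16, 1.54e-07), and TRIM21 from 9.64, 13.1 and 12.7 CPM to 2.94, 2.87 and 4.02 CPM (−1.85 ± 0.18, 1.1e-06). Together with TLR3 these were the 5 largest decreases, and in each the groups were well apart even where the vehicle libraries differed among themselves.

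All 4 OAS genes fell with the compound, by −0.56 ± 0.12 for OAS3 to −1.97 ± 0.16 for OAS2 (log2 fold change, SE), and 4 of 5 sensors fell. Within the ISG15 system USP18 (−1.83 ± 0.14) and HERC6 (−1.75 ± 0.12) fell, HERC5 rose (0.38 ± 0.10) and ISG15 was not called (0.22 ± 0.10, adjusted p = 0.0655). MX1 and MX2 (−0.72 ± 0.14) fell while GBP1 and GBP2 (0.41 ± 0.14), which act on vacuolar pathogens and membranes, rose. XAF1, a pro-apoptotic factor (−1.76 ± 0.16), SAMD9, a growth-restricting antiviral factor (−1.19 ± 0.13), PARP9 (−1.04 ± 0.08), IFI44L (−0.72 ± 0.15), IFIT3 (−0.66 ± 0.07), IFI35 (−0.41 ± 0.09) and IFIT1 (−0.25 ± 0.07) fell as well. SAMD9L was lower (−1.25 ± 0.39, adjusted p = 0.0113), with vehicle replicate 3 at 27.8 CPM against 11.6 and 13.6 CPM in the others, and the call was lost without that library (adjusted p = 0.0697).

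The 5 largest called increases with anticarin-β stayed under 2-fold. TRIM25, the ubiquitin ligase that modifies RIG-I, was at 175, 177 and 216 CPM with vehicle and 354, 360.2 and 414 CPM with the compound (0.99 ± 0.10, adjusted p = 9.67e-07). GBP1 rose from 40.0, 43.2 and 54.0 CPM to 74.7, 87.2 and 96.4 CPM (0.91 ± 0.12, 1.37e-05), and ISG20, an exonuclease for RNA, from 5.49, 5.43 and 4.92 CPM to 9.22, 7.76 and 9.45 CPM (0.74 ± 0.10, 2.12e-05). IRF7 rose from the levels given above (0.67 ± 0.14, adjusted p = 0.000936), and PARP12, a protein that restrains viral translation, from 16.4, 21.8 and 21.9 CPM to 28.0, 29.2 and 31.8 CPM (0.57 ± 0.12, 0.00108). The groups did not overlap in any of these 5 genes. IFIT2 (0.56 ± 0.06), IRF1 (0.54 ± 0.08), HERC5, GBP2 and BST2 (0.22 ± 0.08), a tether of budding virions, completed the 10. With library totals alone the calls of IRF7, PARP12, IRF1 and HERC5 were lost (log2 fold changes 0.26, 0.15, 0.13 and −0.04) and GBP2 turned to −0.01. BST2 was then called lower, at −0.20. GBP2 and BST2 also lost their calls without vehicle replicate 1 or without either of 2 anticarin-β libraries, replicates 2 and 3 for GBP2 and 1 and 3 for BST2.

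Neighbouring genes could be compared with the compound. Among the 44 genes, 14 pairs involving 19 genes lay within 100 kb of each other, and 3 pairs were called in opposite directions: HERC5 with HERC6, IFIT2 with IFIT3 and IFIT2 with IFIT1. This is 21.4% of the pairs, close to the 21.8% of all pairs of tested genes within that distance. IFIT2 was at 104, 102 and 98.4 CPM with anticarin-β against 70.1, 67.6 and 68.1 CPM with vehicle, and IFIT3, 18617 bases away on chromosome 10, at 51.1, 53.4 and 56.1 CPM against 83.9, 81.8 and 87.4 CPM. Both genes fell in each of the 3 pairs among OAS1, OAS2 and OAS3 and in the MX1 and MX2 pair, and GBP1 and GBP2 both rose. An ISRE-type pair stood in 11 of 19 matched genes called lower with the compound (57.9%), 5 of 7 called higher (71.4%) and 9 of 10 not called (90%).

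In the libraries labelled CCT4 siRNA, 9 of the 44 genes (20.5%) were higher and 9 (20.5%) lower than with control siRNA, where 10.7% of all genes tested were higher and 9.04% lower (19.7% either way). The median log2 fold change was −0.01, beside 0.01 over all genes tested. IRF1 was the 1 gene called by more than 2-fold, a cut that was not counted over all genes tested. Every library labelled CCT4 siRNA lay above every control siRNA library for 12 genes (21.7% of all genes tested) and below for 12 (20.1%). The counts depended on single libraries: leaving out any 1 of the 6 siRNA libraries gave 2 to 4 higher and 5 to 7 lower. Of the 18233 to 18289 genes tested in these fits, 1182 to 1448 were higher and 995 to 1164 lower. When only library totals set the scale, 13 of the 44 genes were lower and 2 higher, against 2800 and 902 of the 17717 genes tested. The median of all genes then moved to −0.12. The calls of IRF1 and BST2 upward and of DDX58, DDX60, IFIT3, TRIM21 and XAF1 downward held in all 22 alternative fits.

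IRF1 rose from 126 ± 5.99 to 282 ± 3.24 CPM (mean ± SD, n = 3), which is 1.16 ± 0.08 on the log2 scale (SE; adjusted p = 1.8e-06). BST2 was at 681, 590.4 and 704 CPM with control siRNA and 897, 931 and 899.7 CPM in the libraries labelled CCT4 siRNA (0.47 ± 0.08, adjusted p = 0.00286). IFI27, a mitochondrial protein, was at 153, 147 and 216 and 276, 259 and 264 CPM (0.63 ± 0.19, 0.0321), and IFI6, a protein of the endoplasmic reticulum that limits flaviviruses, at 411, 419.8 and 572 and 653, 662 and 661 CPM (0.49 ± 0.16, 0.0458). In both, control siRNA replicate 3 lay closest to the other group, and both calls were lost without control siRNA replicate 1 or 2 or any 1 library labelled CCT4 siRNA, and that of IFI6 also without anticarin-β replicate 2 or 3. TRIM25 was at 226, 260.3 and 231 and 292, 318 and 306 CPM (0.35 ± 0.10, 0.0222), a call that needed control siRNA replicates 1 and 3 and CCT4 siRNA replicates 2 and 3. IRF3, ISG15 (0.33 ± 0.10), EIF2AK2 and ISG20 (0.29 ± 0.08) completed the 9, and each of these calls was lost without some of the siRNA libraries.

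TRIM21 showed the largest decrease in this comparison, from 23.5, 23.1 and 20.6 CPM with control siRNA to 12.9, 14.4 and 10.6 CPM (−0.83 ± 0.16, SE; adjusted p = 0.00342). XAF1 fell from 58.9, 65.8 and 60.1 to 39.6, 41.3 and 38.4 CPM (−0.63 ± 0.14, 0.00887), and DDX58 and TLR3 fell as given above. SAMD9 went from 212, 224 and 199 to 153, 155 and 165 CPM (−0.43 ± 0.12, 0.0241), a call that needed replicates 1 and 2 of both groups. DDX60, IFIT3 (−0.30 ± 0.07), CMPK2 (−0.36 ± 0.10) and PARP9 (−0.25 ± 0.08) were also lower, and the calls of CMPK2 and PARP9 were lost without any 1 of the 6 siRNA libraries. None of the OAS genes (log2 fold changes −0.11 to 0.13) and none of the antiviral GTPases (−0.28 to 0.25) was called.

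The compound and siRNA responses share no libraries, so their difference was tested directly as a contrast in the same fit. It was called for 29 of the 44 genes, 22 lower with the compound (50%, against 32.4% of all genes tested) and 7 higher (15.9%, against 27.5%), where 59.9% of all genes tested were called either way. The median difference was −0.49 on the log2 scale, beside −0.09 over all genes tested. The largest negative differences were in TLR3 (−3.42 ± 0.30), CMPK2 (−2.34 ± 0.18), MX1 (−1.96 ± 0.21), OAS2 (−1.86 ± 0.21) and USP18 (−1.86 ± 0.19), and all 4 OAS genes were among the 22. The positive ones were led by GBP1 (0.93 ± 0.16), TRIM25 (0.64 ± 0.13), IRF7 (0.58 ± 0.19), IFIT2 (0.52 ± 0.08) and ISG20 (0.45 ± 0.13). With library totals alone 29 of the 44 genes were lower and 3 higher, against 7283 and 3724 of the 17717 genes tested. The median of all genes was then −0.38. IRF1 rose in both comparisons and the rise was larger for CCT4 siRNA (difference −0.62 ± 0.11, adjusted p = 0.000307).

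**Figure D4:**
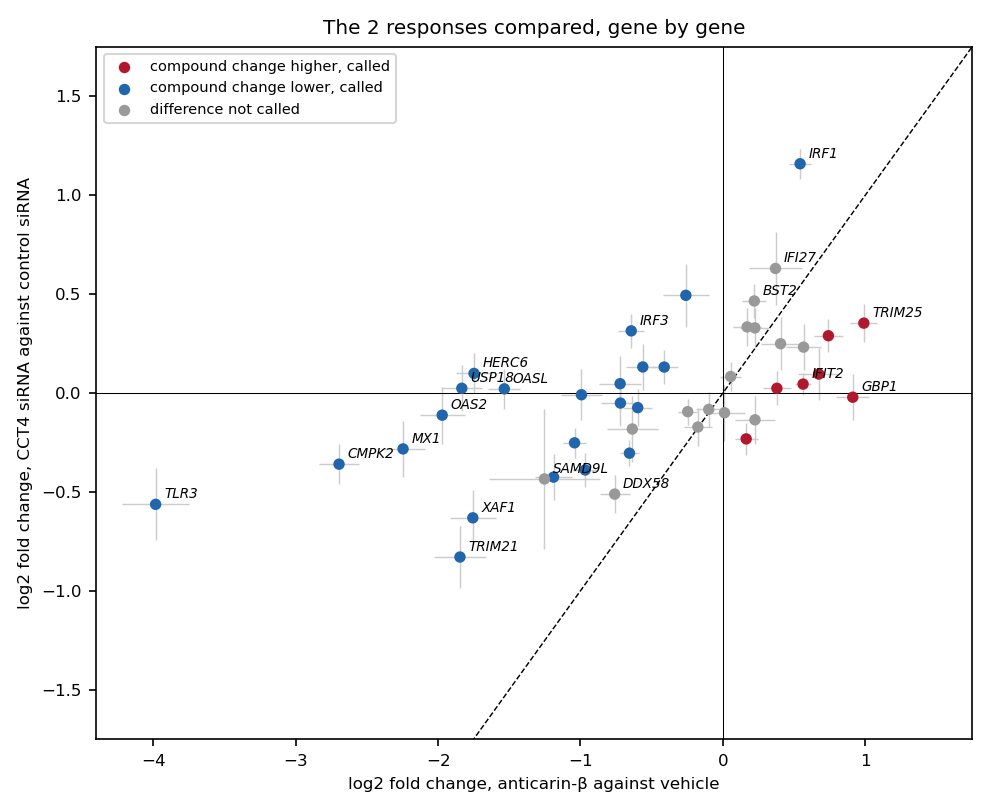
Log2 fold change with anticarin-β (x axis) against that with CCT4 siRNA (y axis) for the 44 genes, with bars of 1 standard error, the dashed line marking equal changes and colours marking the tested difference (red, compound change called higher, 7 genes; blue, called lower, 22 genes; grey, not called). TLR3, CMPK2 and MX1 lie farthest to the left, TLR3 at −3.98 and −0.56, and IRF1 stands alone at the top.

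Set side by side, 4 genes were called higher in both comparisons (IRF1, TRIM25, ISG20 and BST2) and 9 lower in both (DDX58, TLR3, DDX60, IFIT3, TRIM21, CMPK2, XAF1, SAMD9 and PARP9). Over all genes tested, 6.76% were called higher in both and 5.90% lower in both. Of the genes called alike, only IRF1, BST2, DDX58, DDX60, IFIT3, TRIM21 and XAF1 kept their CCT4 siRNA calls in all 22 alternative fits. The compound calls of IRF1 and BST2 did not hold in all of them. A further 14 were lower with the compound and not called for CCT4 siRNA. Called in neither comparison were 6: STAT2, IFIT5, IFI44, RSAD2, PLSCR1 and PARP14. The shares of all genes tested with these patterns were not counted, so the 14 and the 6 have no background beside them. For IFI44, a cytosolic protein of uncertain function, the compound change was 0.05 ± 0.08 with a 95% interval from −0.11 to 0.22, and for PARP14, an ADP-ribosyltransferase, it was −0.10 ± 0.09 with an interval from −0.30 to 0.10.

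Most of the interferon genes had few or no counts, while IFNE held 437 to 854 counts per group. IFNB1, the interferon that most cell types can make, had 0, 0 and 1 counts with vehicle, 0, 2 and 0 with anticarin-β, 14, 12 and 10 with control siRNA and 29, 32 and 27 in the libraries labelled CCT4 siRNA. The siRNA libraries held more in every case, by a ratio of 40.4 for control siRNA over vehicle (95% counting interval 6.80 to 1640). IFNB1 passed the low-count filter only through the siRNA libraries, so this increase over vehicle adds no support. CCT4 siRNA against control siRNA was called (log2 fold change 1.32 ± 0.38, adjusted p = 0.0278), with a ratio of 2.52 (1.69 to 3.83). IFNL1, a type III interferon, was at 0 counts in all vehicle and anticarin-β libraries, at 3, 4 and 0 counts with control siRNA and at 13, 8 and 11 counts in the libraries labelled CCT4 siRNA. Control siRNA is at least 2.62-fold higher than vehicle if 3 counts are allowed for the 3 vehicle libraries together and the 7 counts with control siRNA are taken as exact. It did not pass the low-count filter and has no test, and its ratio between the siRNA groups was 4.72 (counting interval 2.05 to 12.7). IFNL2 and IFNL3 had 0 counts outside the siRNA experiment and at most 4 counts in any library of it. IFNK and IFNG were at 0 counts everywhere, IFNA2 and IFNW1 reached at most 1 and 4 counts, and IFNA5 and IFNA8 at most 6 and 5. IFNA1, one of a family of near-identical genes between which the counting could split reads, was at 0.419 ± 0.264 CPM with vehicle and 2.56 ± 0.558 CPM with anticarin-β (2.62 ± 0.37, adjusted p = 3.3e-05) and was not called between the siRNA groups (1.08 ± 0.36, 0.0509). The vehicle libraries held only 5, 12 and 5 counts of IFNA1, which passed the low-count filter through other groups. Its place among the called genes therefore adds no support. IFNE, known from epithelia of the reproductive tract, was lower with control siRNA than with vehicle (16.0 ± 4.39 and 9.07 ± 2.18 CPM, −0.81 ± 0.21, adjusted p = 0.00628).

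**Figure D5:**
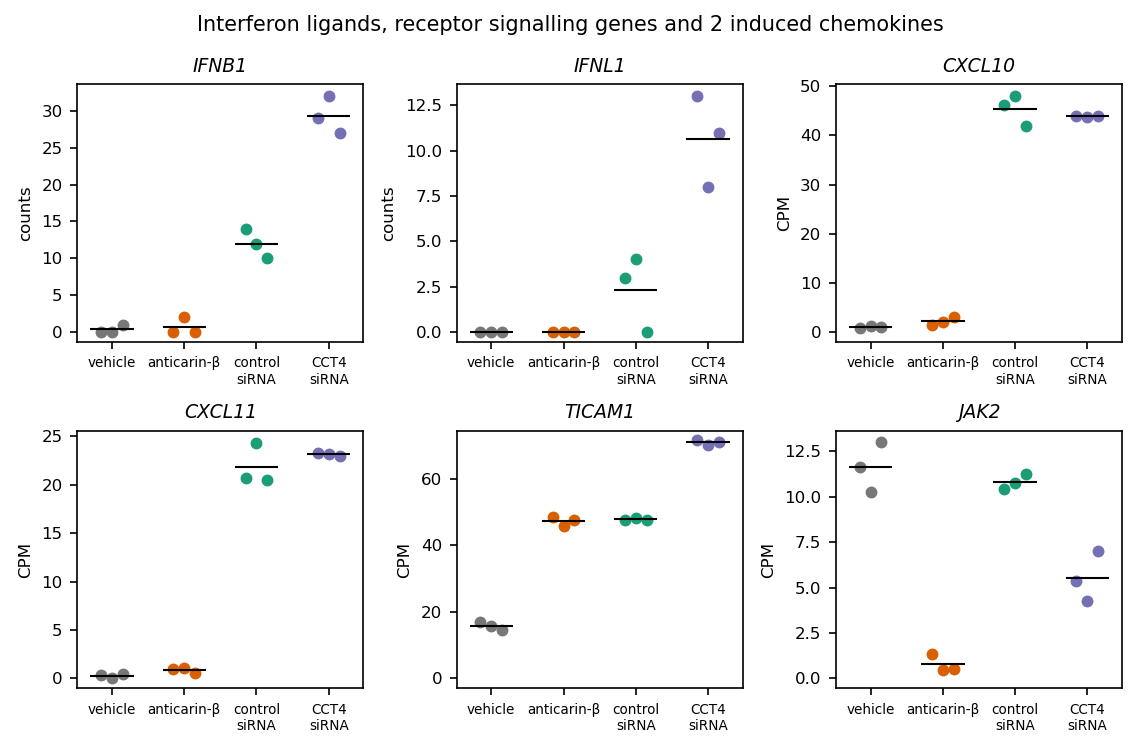
Counts (IFNB1 and IFNL1) or CPM (CXCL10, CXCL11, TICAM1 and JAK2) per library in the 4 groups, with bars at the group means. IFNB1 and IFNL1 counts are at or near 0 with vehicle and anticarin-β and highest in the libraries labelled CCT4 siRNA, CXCL10 and CXCL11 are high in both siRNA groups, and JAK2 is lowest with anticarin-β.

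The receptors and kinases that carry the interferon signal gave 6 of 10 lower and 2 higher with the compound, where 38.0% of all genes tested were lower and 34.9% higher. JAK2, a kinase of the interferon-gamma receptor, was at 11.6, 10.3 and 13.0 CPM with vehicle and 1.34, 0.462 and 0.502 CPM with anticarin-β (−3.89 ± 0.31, adjusted p = 1.28e-07), and it also fell in the libraries labelled CCT4 siRNA (−0.97 ± 0.23, 0.0127). TYK2, a kinase of the type I receptor, fell from 76.8 ± 3.88 to 40.9 ± 0.449 CPM (−0.91 ± 0.07), while JAK1 (0.64 ± 0.06) and IFNGR2 (1.18 ± 0.10) rose. In control siRNA against vehicle 3 of the 10 rose, IFNGR2 (0.80 ± 0.10) among them, and 2 fell, IFNAR1 (−0.43 ± 0.08) and IFNGR1 (−0.30 ± 0.08). These counts are near the 24.8% higher and 23.6% lower of all genes tested.

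Of 14 adaptors and kinases downstream of the sensors, 8 fell and 3 rose with anticarin-β (38.0% and 34.9% of all genes tested). NLRX1, a mitochondrial regulator of this signalling, fell from 28.0 ± 1.27 to 3.11 ± 0.215 CPM (−3.17 ± 0.12), IKBKE, an IRF3 kinase, from 15.4 ± 1.42 to 1.17 ± 0.543 CPM (−3.73 ± 0.22), and RNF135, a ubiquitin ligase for RIG-I, from 17.3 ± 1.19 to 2.93 ± 0.606 CPM (−2.56 ± 0.15). TICAM1, the adaptor of TLR3, rose from 15.8 ± 1.23 to 47.3 ± 1.39 CPM (1.58 ± 0.07, adjusted p = 1.08e-09) while TLR3 itself fell. TICAM1 was also higher with control siRNA than with vehicle (1.59 ± 0.07) and higher again in the libraries labelled CCT4 siRNA (0.57 ± 0.07, adjusted p = 0.000239), where RNF135 (−0.79 ± 0.12), NLRX1 (−0.49 ± 0.10) and TRAF6 (−0.54 ± 0.12) were the 3 of 14 that fell (9.04% of all genes tested). With control siRNA against vehicle, where 24.8% of all genes tested were higher and 23.6% lower, 6 of the 14 rose, among them TMEM173, which encodes STING (1.58 ± 0.09), and TRAF6 (0.98 ± 0.12), and 2 fell, NLRX1 (−0.79 ± 0.10) among them.

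Other nucleic acid sensors and RNA-restriction genes were called in control siRNA against vehicle in all 8 tested of 11 listed, 6 higher and 2 lower, where 24.8% of all genes tested were higher and 23.6% lower. AIM2, a sensor of cytosolic DNA, was at 0 counts in all vehicle and anticarin-β libraries and at 2.43, 2.60 and 2.86 CPM with control siRNA, at least 47.5-fold higher under the same allowance of 3 counts. It passed the low-count filter only through the siRNA libraries, so its place among the 6 higher adds no support. ZC3HAV1 (1.90 ± 0.09), ADAR, which edits double-stranded RNA (0.57 ± 0.06), and IFI16 (0.77 ± 0.09) also rose. With anticarin-β, DHX58 fell by −2.56 ± 0.27, and TLR9 (2.26 ± 0.34) and IFI16 (0.49 ± 0.09) rose, 3 of 8 in each direction, near the 38.0% lower and 34.9% higher of all genes tested. In the libraries labelled CCT4 siRNA, ZC3HAV1 was higher (0.50 ± 0.08) and DHX58 (−0.74 ± 0.21) and IFI16 (−0.30 ± 0.09) were lower. TLR7, TLR8 and ZBP1 had at most 2 counts in any library.

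A second list of 26 interferon-stimulated genes that are not members gave 23 higher and 0 lower in control siRNA against vehicle (24.8% and 23.6% of all genes tested), with a median of 0.93 beside −0.01 over all genes tested. The chemokine genes CXCL10 and CXCL11 stood out, at 0.746, 1.27 and 1.07 and 0.320, 0.0603 and 0.428 CPM with vehicle and 46.3, 48.0 and 41.9 and 20.7, 24.3 and 20.5 CPM with control siRNA (5.46 ± 0.21 and 6.26 ± 0.28). CXCL11 did not pass the low-count filter through its vehicle libraries, so its place among the 23 higher adds no support. SP100, a component of PML bodies (1.28 ± 0.07), and EPSTI1 (2.05 ± 0.14) rose less. With anticarin-β 14 of the 26 fell and 11 rose, where 38.0% and 34.9% of all genes tested did (median −0.48 beside −0.06), and those with the smallest p were LAP3 (−2.69 ± 0.09), NMI (−2.06 ± 0.12) and the ISG15-conjugating enzymes UBE2L6 (−1.62 ± 0.10) and UBA7 (−1.96 ± 0.15), all lower. In the libraries labelled CCT4 siRNA 2 rose, HELZ2 (0.39 ± 0.09) and IFITM3 (0.50 ± 0.13), and 6 fell, ZNFX1 (−0.68 ± 0.08) and RTP4 (−0.85 ± 0.18) among them, where 10.7% of all genes tested were higher and 9.04% lower.

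Of 10 negative regulators of interferon signalling, 4 fell and 3 rose with anticarin-β, close to the 38.0% lower and 34.9% higher of all genes tested. PTPN11 (1.31 ± 0.07), PIAS4 (1.19 ± 0.09) and PIAS1 (1.18 ± 0.08) rose, and SOCS3, an inhibitor of JAK kinases, fell from 72.0 ± 5.14 to 31.2 ± 3.18 CPM (−1.21 ± 0.09). SOCS3 was higher in the libraries labelled CCT4 siRNA (0.69 ± 0.09), as was PTPN1 (0.36 ± 0.06), while PIAS3 (−0.59 ± 0.08) and PIAS1 (−0.51 ± 0.08) were lower, with 4 of 10 higher and 2 lower in all (10.7% and 9.04% of all genes tested). With control siRNA against vehicle 4 rose, SOCS1 (0.56 ± 0.15), PIAS1 (0.38 ± 0.08) and PIAS3 (0.28 ± 0.08) among them, and 2 fell, PTPN11 (−0.67 ± 0.07) and SOCS3 (−0.28 ± 0.09). Over all genes tested 24.8% were higher and 23.6% lower in that comparison.

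Other differences accompany the contrast between the experiments. The summed level of 8 mesenchymal and osteoblast markers was 9846 to 12562 CPM with vehicle and 3752 to 4066 CPM with control siRNA, with COL1A1 at 3777 and 533 CPM on average. Of these 8 markers COL1A1, COL1A2, COL3A1, SPARC and THY1 were called lower, VIM and RUNX2 were not called, and ALPL was called higher (9.24 and 18.3 CPM on average, log2 fold change 0.98, adjusted p = 2.24e-05). The summed level of 8 haematopoietic markers was 22.8 to 33.6 CPM with vehicle and 73.4 to 98.5 CPM with control siRNA, mostly from CD68 (16.2 and 67.7 CPM on average). CD14 and IL3RA were at 10.7 and 4.65 CPM on average with control siRNA, against 8.98 and 2.46 CPM with vehicle. PTPRC went the other way and was called lower, at 0.119 CPM against 0.869 CPM with vehicle (log2 fold change −2.73, edgeR adjusted p = 0.0187). CD3E and LYZ were at 0 counts. The sum of 5 epithelial markers was 131 to 156 CPM and 112 to 117 CPM. With anticarin-β the 3 sums were 15684 to 16452, 53.6 to 63.2 and 147 to 169 CPM, and in the libraries labelled CCT4 siRNA 4855 to 5065, 87.6 to 90.2 and 116 to 137 CPM. Their part in the results was not tested.

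An exon of 14 of the 44 genes overlaps an exon of another gene: EIF2AK2, OAS1, IRF1, IRF3, IRF9, IFIT2, MX1, GBP2, ISG15, TRIM25, RSAD2, CMPK2, XAF1 and PARP9. Whether reads were counted by strand is not stated in the sources, so reads may be shared, and the values of these genes are uncertain to that extent. Among the 30 genes without such an overlap, 27 were higher in control siRNA than in vehicle libraries, and 17 fell and 6 rose with anticarin-β. Over all genes tested, with or without an overlap, 24.8% were higher in control siRNA than in vehicle libraries. With anticarin-β 38.0% of all genes tested fell and 34.9% rose.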

How the data were processed

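RNA-seq of MG63 cells was analysed in 12 libraries, with 3 for each of vehicle, anticarin-β, control siRNA and CCT4 siRNA. The values are raw read counts per gene as deposited by the authors, in 1 table of 50868 genes, with a column per library and no normalization. Per the labels' protocols, the libraries came from a TruSeq stranded kit. STAR 2.5.2a, featureCounts 1.5.0, Subread and hg38 are named, per the submitters' processing notes. The labels and headers do not say which annotation was counted, whether strand was used or what became of multi-mapping reads. Genes that share exons or have near-identical copies are therefore marked as uncertain. Positions and exon overlaps came from GENCODE 29 on GRCh38, which held 98.5% of the gene identifiers. Promoters came from RefSeq on GRCh38.p14.

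Groups and replicate numbers came from the labels. Counts of replicates were compared by chi-square, which gave 8.48 to 26.5 per degree of freedom, so no pair agreed within sampling noise. At these totals 3 counts in 1 library corresponded to 0.160 to 0.277 CPM. Intervals made from counts hold counting error and nothing else. Floors allow 3 counts for a group that held 0 and take the counts of the other group as exact, so they leave out the counting error of the latter.

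The test was edgeR 4.0.16 (R 4.3.3) by quasi-likelihood, two-sided, with TMM scaling, filterByExpr, 1 mean per group over all 12 libraries (8 residual degrees of freedom) and Benjamini-Hochberg adjustment over the 17717 genes tested. The prior count was 0.125, and each SE is the log2 fold change over the square root of F. The alternatives tried were DESeq2 1.42.0, limma-voom (limma 3.58.1), scaling by RLE, by upper quartiles or by library totals, no low-count filter, a stricter filter (1 CPM in 3 libraries), a threshold of 0.01, a replicate block, only the groups compared, and each library left out.

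Earlier results of these data were known when the 44 genes, the related lists and the naming rule were chosen. All 44 are accounted for. Values in every library are given for sensors, transcription factors and, per comparison, the 5 largest called changes in each direction with at least 1 CPM in the higher group. Of each related list up to 4 called genes with the smallest p are named, with the interferon genes. Some genes of these lists are counted but not reported here by name. IFNLR1, IFNAR2 and other called genes outside this rule are counted only. The 6 printed sequences were chosen after the values were seen.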

Additional observations from a re-analysis of the deposited data

How the results depend on the processing

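Of the 44 genes, the calls held in every alternative for 4 of 10 increases and 23 of 24 decreases with anticarin-β, 2 of 9 and 5 of 9 with CCT4 siRNA, 35 of 40 and 0 of 1 for control siRNA against vehicle, and 3 of 7 and 21 of 22 for the difference of the responses. With library totals alone, 4 genes were higher with anticarin-β, 2 with CCT4 siRNA and 3 in the difference. Over all 17717 genes tested, these counts were 4292, 902 and 3724. The medians of the 44 genes were then −0.90, −0.15 and −0.77, and 1.77 for control siRNA against vehicle. The median of all genes was at −0.48, −0.12, −0.38 and 0.04. Among genes called with TMM or with library totals, the log2 fold change with anticarin-β then changed sign for EIF2AK2 (−0.25), STAT2 (−0.40), IFIT5 (−0.25), GBP2 (−0.0096), HERC5 (−0.038), IFI44 (−0.36), BST2 (−0.20), IFNGR1 (−0.25), ZC3HAV1 (−0.18), LGALS3BP (−0.038), HELZ2 (−0.090) and PIAS3 (−0.25). Sign changes of genes called in neither fit are not listed. Upper-quartile scaling gave medians of −0.60, −0.039, 1.65 and −0.58 for anticarin-β, CCT4 siRNA, control siRNA and the difference, RLE −0.42 for anticarin-β and −0.42 for the difference, and DESeq2 −0.42 for both. With only the siRNA groups fitted, the CCT4 siRNA median was −0.030. Under a threshold of 0.01, 2 genes were higher and 5 lower with CCT4 siRNA, and 0 were lower in control siRNA against vehicle, since TLR3 missed it. Over all 17717 genes tested, 840 were then higher and 677 lower with CCT4 siRNA, and 3007 lower in control siRNA against vehicle. The cause of these shifts was not tested.

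Leaving out 1 library gave 8 to 14 higher and 23 to 25 lower with anticarin-β (median −0.57 without vehicle replicate 1 to −0.36 without vehicle replicate 3), 2 to 9 and 5 to 10 with CCT4 siRNA (−0.036 to 0.0096), 36 to 40 and 1 for control siRNA against vehicle (1.59 to 1.81), and 5 to 8 and 22 to 25 for the difference (−0.59 to −0.38). Of the 18192 to 18289 genes tested in these fits, 5951 to 6302 were higher and 6526 to 6846 lower with anticarin-β. With CCT4 siRNA the counts over all genes tested were 1182 to 2214 higher and 995 to 1812 lower. They were 3992 to 4437 and 3705 to 4202 for control siRNA against vehicle, and 4623 to 4823 and 5486 to 5791 for the difference.

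Same-numbered libraries of the groups compared did not deviate together (correlations from −0.040 to 0.026), although in the siRNA experiment each library correlated best with its own number. With a replicate block, 10 genes were higher and 24 lower with anticarin-β, 7 and 7 with CCT4 siRNA, 38 and 1 for control siRNA against vehicle, and 7 and 22 for the difference. Over all 17717 genes tested, this fit called 6093 higher and 6663 lower with anticarin-β, and 1639 and 1397 with CCT4 siRNA. It called 4245 and 4008 for control siRNA against vehicle, and 4743 and 5619 for the difference.

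Depth limits IFNB1 and IFNL1, of which a group held 0 to 88 counts in all.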
